A study of Mus musculus with 26 samples.

Results

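The network described here is the set of chromatin loops anchored at RNA polymerase II in the WT-labelled neural progenitor cell (NPC) culture, taken as every deposited loop supported by at least 2 paired-end tags. These were 59194 of the 143451 loops in that list (41.3%), and they carried 322893 of its 407150 tags (79.3%). The study compared wild-type (WT) cells of the mouse ESC line E14 with cells knocked out (KO) for Klf4, which encodes a zinc-finger factor that helps to hold embryonic stem cells (ESCs) in the naive state. ESCs were kept on gelatin in serum with LIF and inhibitors of MEK and GSK3, and the NPC label stands for 12 days of neural induction. HiChIP, which ligates DNA fragments lying close together and enriches those bound by a chosen protein, was labelled with 2 replicates for WT and 2 for Klf4 KO, but deposited as 1 list per label that both replicates name, so they appear pooled. RNA-seq had 2 biological replicates per label. No loop value therefore has a replicate, and intervals given for shares of loops or tags are 95% Clopper-Pearson intervals that cover counting error only.

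The labels did not match the RNA. Klf4 had 0 counts in both WT-labelled RNA-seq libraries, while the KO-labelled libraries held 2571 and 2538, so libraries and lists are named by their label and not by genotype. Nothing in the loop list reads the deletion, and whether the same mismatch holds for HiChIP was not tested. Marker genes were then set beside the NPC label. Of 8 neural progenitor markers, 3 reached 1 CPM (gene counts scaled to library size) in both WT-labelled libraries, Fabp7 and Hes5 were at 0, and the summed level was 94.0 and 92.6 CPM. Of 8 ESC markers, 7 reached 1 CPM, Klf4 was at 0, and the sum was 7607 and 7655 CPM. In the longer lists used below, 15 of 31 neural progenitor genes (Sox2 among them, which ESCs express too) reached 1 CPM and summed to 1665 and 1653 CPM, while all 32 pluripotency genes, a list without Klf4, did and summed to 14548 and 14514. ESC markers were thus the higher set, and some progenitor genes were also expressed. Loops with a partner at the start of these genes carried 73 tags for the progenitor markers and 1587 for the ESC markers. The 4 defining markers of each of mesoderm, endoderm, fibroblasts and trophoblast summed to between 0.542 and 22.7 CPM per library. The 4 of neurons summed to 144.1 and 145.4 CPM, of which Tubb3 alone gave 140.1 and 141.5. The longer lists, which hold genes that ESCs may share, summed to 1455 and 1450 CPM for fibroblast and matrix genes, 584 and 563 for neuron, 538 and 530 for endoderm, 173 and 173 for trophoblast and 27.4 and 27.7 for mesoderm. Their part in the results was not tested. In a bulk culture, fewer cells of a type and less RNA per cell cannot be told apart. Gene counts totalled 29835774 to 37703866 per library over both labels.

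RNA polymerase II transcribes protein-coding genes and many noncoding RNAs, and it sits both at promoters and at active enhancers. Loops read by polymerase HiChIP therefore include contacts between promoters, between enhancers, and between the kinds. In ESCs, genes of the pluripotency factors lie beside clusters of enhancers occupied by many activators and by polymerase.

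The loops joined 20347 anchors, the polymerase-bound intervals at loop ends, which covered 82.5 Mb of the mm10 genome. An anchor had a median of 4 partners (mean 5.82, quartiles 2 and 8). The distribution had a long upper tail. In all, 17.3% of anchors had 1 partner (interval 16.8% to 17.8%), 17.5% had at least 10, 3.33% had at least 20, and 35 anchors (0.172%) had at least 40. The busiest had 82. Width and partners moved together. The 5089 narrowest anchors (up to 2375 bp) had a median of 3 partners and the 5086 widest (4545 to 49785 bp) a median of 9. Over anchors, Spearman's rho of partners with width was 0.468, and of partners with the number of anchors lying within 2 Mb it was 0.446. These are descriptions over 20347 anchors that share 1 library pool. Anchors with and without a gene start were alike in partners: anchors within 2500 bases of a gene start (51.6% of all) and the rest both had a median of 4, with means of 6.17 and 5.45.

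**Figure D1:**
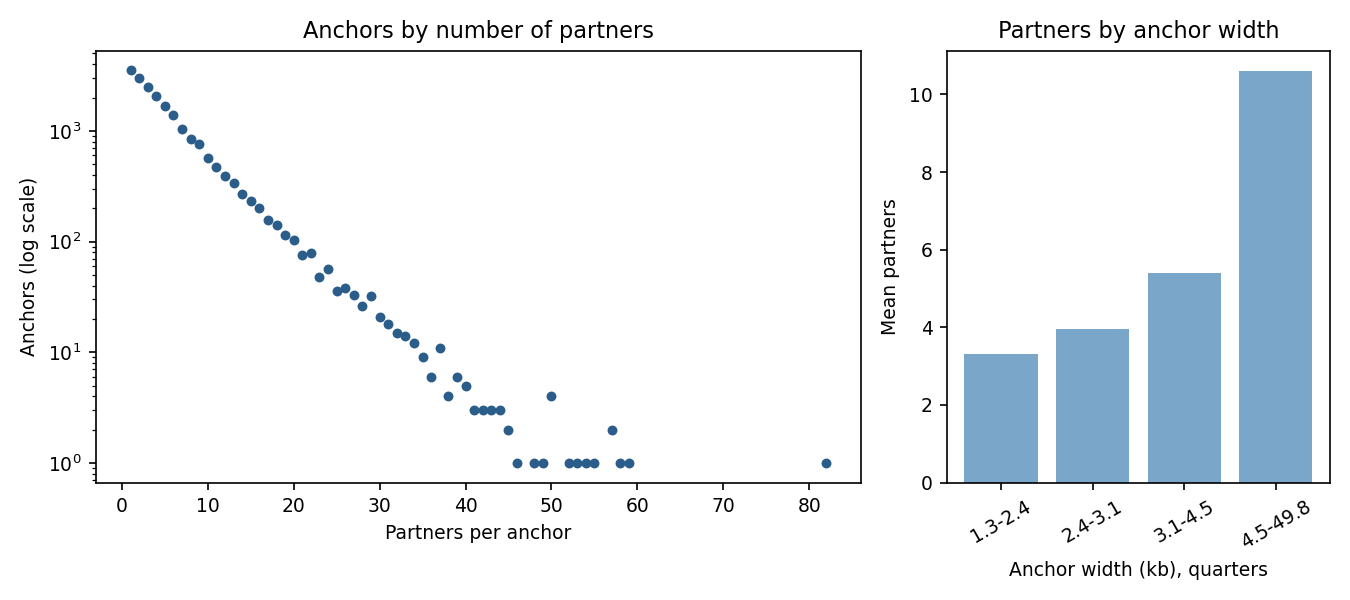
Left, number of anchors (log scale) at each number of partners in the WT-labelled list. Right, mean partners of anchors in 4 classes of width that hold alike numbers. Counts go from 3517 anchors with 1 partner to a single anchor with 82, and the widest class averages 10.6 partners against 3.32 in the narrowest.

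Partners of 1 anchor were often joined to each other: 39.2% of the 613959 partner pairs that shared an anchor also had a loop of their own. Busy anchors tended to be joined to busy anchors (Pearson r over loops 0.205). The anchors fell into 945 groups without a loop between groups, with a median of 4 anchors each. A total of 305 groups were single pairs, while 46 groups of at least 100 anchors held 44.9% of all anchors. The largest group spanned 27.6 Mb of chromosome 4 (chr4:115737094-143308034) with 625 anchors and 2253 loops. Chromosome 11 held the most loops (7171, or 12.1%) and 8.01 partners per anchor on average. Chromosome X held 485 loops with a mean of 2.85 partners. RefSeq lists 2361 coding and long noncoding genes on chromosome 11 and 1255 on X. These counts were not adjusted for gene number or for copies of a chromosome per cell.

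Promoter sequences are printed here for genes whose start lies inside an anchor of the network, 3 at anchors among the 20 busiest and 2 pluripotency genes, so that the reader can see how these polymerase-bound starts differ in base composition. Each is the 250 bases before the start in RefSeq (GRCm38.p6, the assembly of mm10), 5′ to 3′ on the strand of the gene. Where RefSeq lists several starts, the window used lies outside the annotated span of the gene. Capitals mark matches on either strand to the GC box GGGCGG, the site of Sp-family factors, to GGGNGTGG, a KLF-type site, or to TATAAA, the core of the TATA box. Overlapping matches are counted separately. In the order printed, the 5 windows lie at chr10:80039660-80039909 (minus), chr11:69682085-69682334 (minus), chr2:166155684-166155933 (minus), chr17:35505782-35506031 (plus) and chr6:122707239-122707488 (plus), with the strand in parentheses.
Polr2e: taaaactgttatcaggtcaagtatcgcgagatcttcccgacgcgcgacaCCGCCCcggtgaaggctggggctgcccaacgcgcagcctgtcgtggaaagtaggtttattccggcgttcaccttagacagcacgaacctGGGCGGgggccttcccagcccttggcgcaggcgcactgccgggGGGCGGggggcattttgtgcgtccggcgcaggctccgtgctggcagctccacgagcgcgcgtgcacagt
Senp3: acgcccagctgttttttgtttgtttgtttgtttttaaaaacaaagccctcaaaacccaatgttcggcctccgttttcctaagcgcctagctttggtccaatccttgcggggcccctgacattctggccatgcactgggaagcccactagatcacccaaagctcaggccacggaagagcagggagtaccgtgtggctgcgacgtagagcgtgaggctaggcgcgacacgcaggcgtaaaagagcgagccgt
Sulf2: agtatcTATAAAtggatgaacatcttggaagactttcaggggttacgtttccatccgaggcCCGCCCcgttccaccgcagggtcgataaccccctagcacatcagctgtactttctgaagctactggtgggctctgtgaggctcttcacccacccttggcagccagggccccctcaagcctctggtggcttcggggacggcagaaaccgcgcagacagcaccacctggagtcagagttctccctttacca
Pou5f1: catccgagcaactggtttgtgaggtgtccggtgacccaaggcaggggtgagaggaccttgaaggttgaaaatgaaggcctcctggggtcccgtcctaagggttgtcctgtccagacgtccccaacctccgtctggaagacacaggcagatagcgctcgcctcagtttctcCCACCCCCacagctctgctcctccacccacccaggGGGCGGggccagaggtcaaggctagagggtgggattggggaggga
Nanog: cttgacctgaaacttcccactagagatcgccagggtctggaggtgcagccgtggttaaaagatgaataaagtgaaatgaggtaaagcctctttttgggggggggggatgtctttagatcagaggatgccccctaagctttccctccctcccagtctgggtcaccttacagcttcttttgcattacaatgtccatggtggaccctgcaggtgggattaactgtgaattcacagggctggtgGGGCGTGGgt

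The Polr2e promoter held 27 CpG dinucleotides and 3 GC-box matches. Senp3 had 16 CpGs and none of the motifs. Sulf2 had 10 CpGs, 1 GC box and 1 TATAAA, which lies 244 bases before the start. Pou5f1 had 8 CpGs with 1 GC box and 1 KLF-type match, and Nanog had 3 CpGs with 1 KLF-type match. A GC box stood in 32.7% of all 32851 RefSeq promoter windows of this length, in 53.8% of those of genes with a loop and in 19.5% of those without. The 250 windows of genes at the busiest 1% of anchors held it in 45.2%. The KLF-type motif stood in 15.9% of all windows, 19.8% with a loop, 13.4% without and 16.4% at the busiest anchors. Among genes with at least 1 CPM in both WT-labelled libraries, the KLF-type share was 20.8% with a loop and 21.1% without, and the GC-box share 60.1% and 53.3%. TATAAA stood in 12.4% of all windows, 6.77% with a loop, 15.9% without and 8.40% at the busiest anchors. A match describes letters in these windows and does not show binding.

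The 20 anchors with the most partners had 44 to 82 partners, 273 to 940 tags and widths of 11.6 to 40.4 kb. The anchor ranked next also had 44 partners, so the boundary of this group is arbitrary. Chromosome 2 held 7 of them and chromosome 11 held 5. Each was joined to between 32.5% and 73.3% of the anchors available within 2 Mb, against a median of 8.57% over all anchors. The 20 were chosen by their partners, so a high share follows from the choice, and anchors of like width were not compared. Of their 1048 partner ends, 618 (59.0%) lay at a gene start. A gene start, unnamed gene models included, lay at 15 of the 20.

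The busiest anchor, chr2:165962991-165994545, had 82 partners and 940 tags. It covers 1 annotated end of Ncoa3, a nuclear receptor coactivator, and all of the noncoding RNA Platr29, and strand was not given for either gene. It was joined to 64.6% of the anchors within reach, and its farthest partner lay 1799 kb away. Its strongest loop, with 115 tags, reached an anchor 32.9 kb away at chr2:166007095-166016340. The anchor at the start of Sulf2, an extracellular sulfatase that edits heparan sulfate, lay 176 kb away with 50 partners of its own and was joined to it by 37 tags. Another pair of busy anchors on the same chromosome, chr2:167366710-167388476 and chr2:167395110-167406748, had 52 and 46 partners and no gene start. B4galt5 lay 17.5 kb from the former and Slc9a8 14.9 kb from the latter. They were joined to each other by 194 tags and to the Ncoa3 anchor, 1399 and 1422 kb away, by 15 and 5 tags. In all, 11 loops joined members of the 20 to each other.

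On chromosome 11, chr11:117075057-117094496 had 59 partners at Snhg20, a host gene of small nucleolar RNA. The anchor chr11:69676633-69717029 had 58 partners and 892 tags. It is 40.4 kb wide and covers the starts of Senp3, a SUMO-specific protease, and of the cytokine genes Tnfsf12 and Tnfsf13. Its strongest loop, with 161 tags, went to the start of Eif4a1, an RNA helicase of translation initiation. Mllt6, a chromatin-associated transcription factor gene, had 55 partners and 659 tags, and its strongest loop (85 tags) went to an anchor at Pcgf2 and Psmb3. Lasp1, an actin-binding protein gene, had 53 partners and 393 tags, with the ribosomal protein gene Rpl23 as its strongest partner (47 tags). The Mllt6 and Lasp1 anchors lay 146 kb apart and shared 35 tags. Llgl2, a cell polarity gene, had 49 partners.

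Elsewhere, chr7:127204212-127237405 had 57 partners at Tbc1d10b, Mylpf (a myosin light chain), Septin1 and Zfp553, with a 192-tag loop to the start of Cd2bp2. Gpr107 on chromosome 2 also had 57 partners, and Zer1 with Tbc1d13 had 45. Ssr2 on chromosome 3, a subunit of the translocon-associated complex, had 50. The anchor at Polr2e, a subunit shared by the RNA polymerases, and Gpx4, a lipid peroxidase, had 45, and 39 of these lay at gene starts. The anchor at chr17:29052471-29083866 covers the noncoding RNA Trp53cor1, and its strongest partner (133 tags) was the start of Cdkn1a, a cell cycle inhibitor. At chr6:125418165-125457779 the strongest partner, with 208 tags, was the start of Cd9, a tetraspanin. Other anchors without a named gene start lay within Zfp607b on chromosome 7, in the histone gene region of chromosome 13, near Wasf2 on chromosome 4 and near Ntmt1 on chromosome 2. Genes with near-identical copies, as zinc-finger and histone genes have, may share reads, and loops at them are uncertain.

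**Figure D2:**
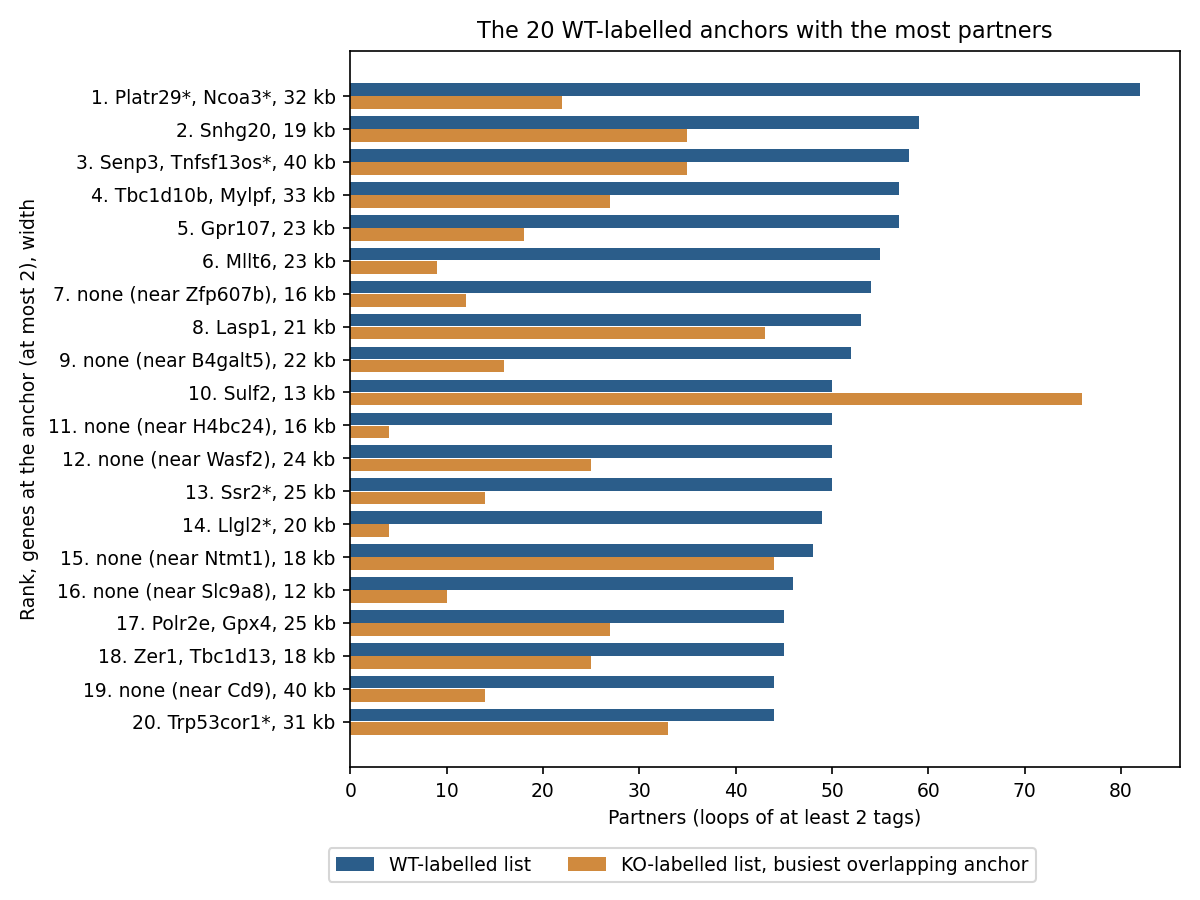
Partners of the 20 busiest WT-labelled anchors (blue) and of the busiest KO-labelled anchor overlapping each (orange), with up to 2 genes and the width in kb. An asterisk marks a gene placed by either annotated end. The KO-labelled bar is longer at Sulf2 alone.

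The KO-labelled list held 168426 loops of at least 2 tags, 44059 anchors and a mean of 7.65 partners. Each of the 20 was overlapped by at least 1 base of a KO-labelled anchor, as were 85 of the 100 busiest. Wide anchors are overlapped more easily, and the share over all WT-labelled anchors was not computed, so these counts have no background. Where several overlapped, only the busiest was read, and partners of the others were left out. That anchor stood in the busiest 1% of its own list for 3 of the 20 and in the busiest 5% for 10. The Ncoa3 anchor had 82 partners in the WT-labelled list and was 31.6 kb wide. The busier of 2 KO-labelled anchors overlapping it had 22 and was 2.72 kb wide. Mllt6 had 55 and 9, Senp3 had 58 and 35, and Lasp1 had 53 and 43, each read at the busiest of 3 overlapping anchors. Sulf2, overlapped by 1 KO-labelled anchor, went the other way, with 50 and 76. Anchors were called in each list separately, with median widths of 3149 and 2892 bp, and these pooled lists allow no test of the differences.

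Tags lay mostly at short range, and tags per loop fell with distance. The median distance between anchor centres was 107 kb (quartiles 37.3 and 271 kb). Loops of at most 100 kb were 48.2% of loops and held 67.9% of tags (interval 67.8% to 68.1%). Mean tags per loop were 10.9 at 5 to 20 kb, 7.62 at 20 to 50 kb, 5.06 at 50 to 100 kb, 3.99 at 100 to 200 kb, 3.19 at 200 to 500 kb, 2.77 at 500 to 1000 kb and 2.68 beyond. Medians went from 6 to 2. Anchor width mattered within each distance. At 5 to 20 kb, loops whose anchors summed to more than the median of 7.70 kb averaged 17.1 tags, and those below it 4.69. Beyond 1000 kb the same means were 2.99 and 2.37.

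A gene start lay at both anchors of 32.1% of loops, at 1 anchor of 45.2% and at neither of 22.6%. The share with neither was 29.1% at 5 to 20 kb and 19.5% at 200 to 500 kb. Tags hardly differed between these kinds once distance was held: at 5 to 20 kb the means were 10.7, 10.9 and 11.0 for both, 1 and neither.

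The deposited false discovery rate, the authors' value, moved with distance as well as with tags. Of all kept loops, 37.4% had a rate of at most 0.01. Loops with 2 tags, 41.7% of the network, reached it in 0% of cases under 200 kb, in 66.0% at 200 to 500 kb and in 100% beyond. At 5 to 20 kb no loop with fewer than 14 tags reached it, and at 50 to 100 kb none with fewer than 10. A list kept at that rate would hold far 2-tag loops and lose near loops of up to 18 tags.

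**Figure D3:**
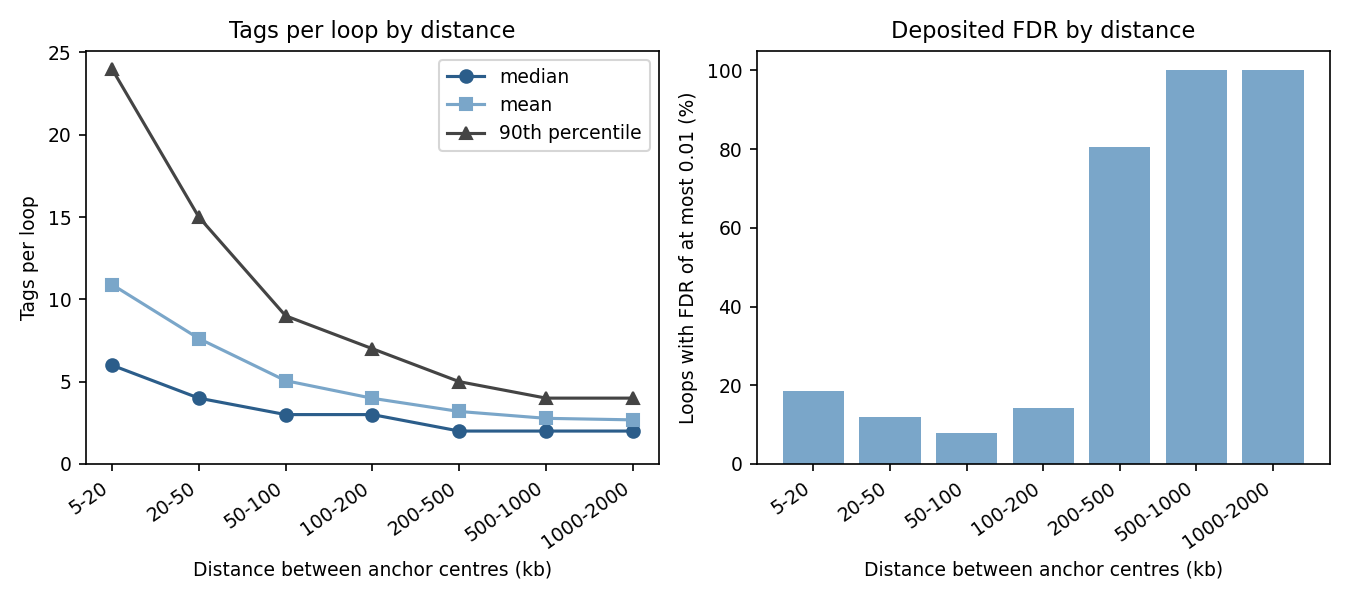
Left, median, mean and 90th percentile of tags per loop by distance between anchor centres. Right, percentage of loops whose deposited false discovery rate (FDR) is at most 0.01. Mean tags fall from 10.9 to 2.68, while the share at that rate is 18.4% at 5 to 20 kb, 7.82% at 50 to 100 kb and 100% beyond 500 kb.

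Tags were concentrated. The strongest 592 loops (1%, with at least 41 tags) held 13.6% of tags, and 99 loops had at least 100. Of the 20 strongest, with 191 to 370 tags, 17 joined anchors at most 100 kb apart, 10 spanned a gap of under 5 kb, and the anchors had a median width of 18.4 kb. The loop ranked next had 186 tags. A gene start lay at both anchors of 6 and at neither of 3. Of the 20, 9 had a counterpart in the KO-labelled list (a loop of any tag number whose anchors overlapped both), against 33.1% of all kept loops and 37.4% of those within 100 kb.

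The strongest loop, 370 tags, joined chr12:86864088-86886350 at the start of Irf2bpl, an IRF2-binding-protein-like gene, with the next anchor, chr12:86887434-86926893. That second anchor also had 229 tags with chr12:86792703-86811270, and Irf2bpl gathered 920 tags in all. The second loop, 354 tags, joined the start of Mkrn1, a ubiquitin ligase, with an anchor beyond a gap of 3.797 kb. The third, 273 tags, linked the start of Klf9, a KLF-family factor, with an anchor 53.1 kb away that has no gene start. Others lay within Trip12 and Fbxo36 (263 tags) and Macf1 (248), and between Adrb3 and Eif4ebp1 (238), a translation repressor. Loops at B4galt6 had 227 tags and at Mybl2, a cell cycle transcription factor, 224. The anchors at Malat1 and Neat1, long noncoding RNAs of nuclear bodies, shared 208 tags. Jarid2, a cofactor of the Polycomb complex, had 205 tags and Bicral, a subunit of a chromatin remodelling complex, also 205. Anchors at starts of Ncor1, a nuclear receptor corepressor, were linked to 1 anchor within the neighbouring gene Pigl by 202 and 193 tags, and with 1028 tags Ncor1 gathered the most of any named gene.

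Far loops formed a small class: 7053 joined anchors more than 500 kb apart. Their strongest 20 had 23 to 216 tags, and 16 of the 20 lay in 3 regions, with 6 at 145 to 148 Mb of chromosome 4, 5 at 61 to 67 Mb of chromosome 13 and 5 at 19 to 21 Mb of chromosome 8. A zinc-finger gene start lay at an anchor of 7 of them, such as Zfp980 (131 tags, 1300 kb) and Zfp987 with Zfp534 (63 tags, 1597 kb). The strongest, 216 tags over 633 kb on chromosome 13, had no named gene. Of the 20, 4 had a counterpart in the KO-labelled list, 3 of them with at least 2 tags there, against 16.9% of all 7053 far loops, or 5.03% with at least 2 tags. Zinc-finger genes here have near-identical copies that can share reads, so loops at them are uncertain. Whether shared reads also bear on the other far loops, those of chromosome 8 among them, was not tested.

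Genes with loops were mostly genes with RNA. At least 1 CPM in both WT-labelled libraries was reached by 19.95% of the 14043 genes without a tag at their start (interval 19.3% to 20.6%). With 2 to 9 tags the share was 81.1%, with 10 to 29 it was 84.2%, with 30 to 99 it was 85.9%, with 100 to fewer than 300 it was 83.7%, and with 300 or more it was 73.5% (65.6% to 80.4%). The median level was 19.5 and 19.6 CPM in the libraries at 2 to 9 tags, 48.0 and 48.3 at 30 to 99, and 65.4 and 71.4 at 300 or more. A loop lay at 13.9% of genes under 1 CPM, 53.8% of those with 1 to 10 CPM, 81.0% with 10 to 100 and 93.7% with 100 or more. The relation with the number of tags was weaker among genes with a loop. Over 17638 genes with a count, rho of tags and CPM was 0.543, and over the 10506 that also had a tag it was 0.200. Within the latter, anchor width gave 0.245 and tags per kb of anchor 0.132. Genes at 1 anchor share its tags, and genes are not independent replicates. Over 19458 genes with a count in any library, rho with the WT-labelled libraries was 0.585 and 0.584, and with the KO-labelled libraries 0.521 and 0.521.

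**Figure D4:**
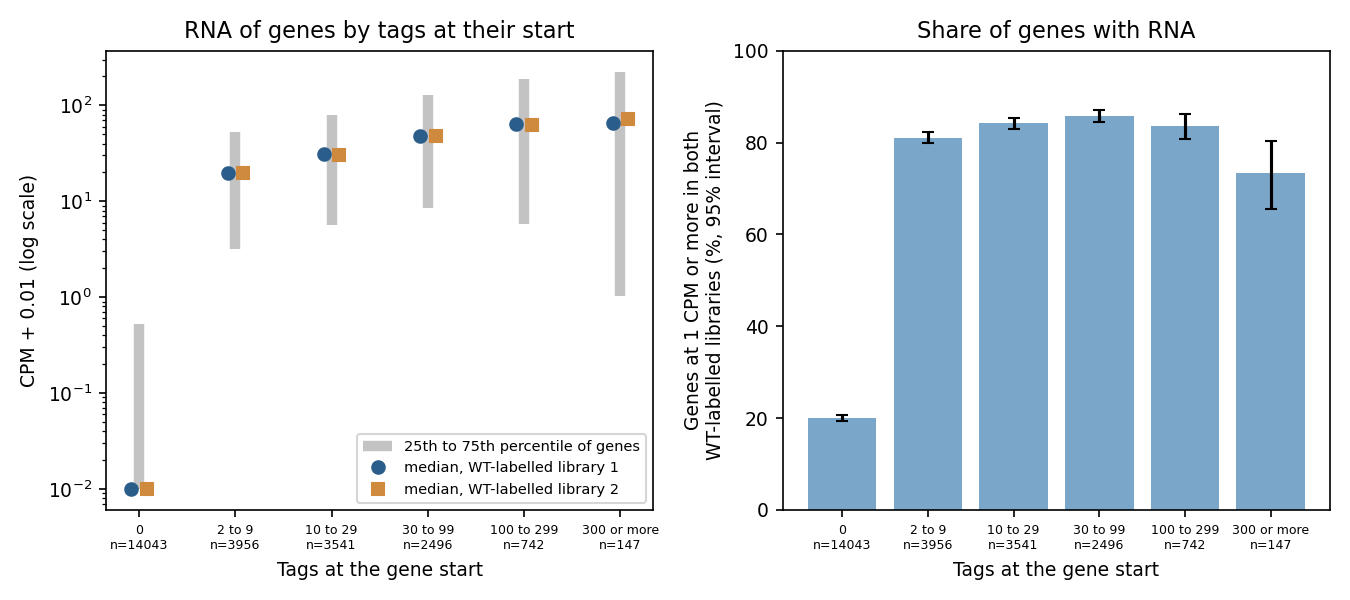
Left, median CPM (+ 0.01, log scale) of genes by tags at their start in each WT-labelled library, with the 25th to 75th percentile of genes as grey bars. Right, share of genes with at least 1 CPM in both libraries, with 95% Clopper-Pearson intervals. The share is 19.95% without a tag and between 73.5% and 85.9% with tags.

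Exceptions ran both ways. The genes with the most tags and under 1 CPM in both libraries were Tnfsfm13 (892 tags), which shares the anchor of Senp3, the histone genes H1f3, H3c6 and H4c6 (508 tags, 1 shared anchor), and Slc4a1, the red cell anion exchanger (468 tags). Slc4a1 was placed by either annotated end, so its tags may not lie at its start. The genes with the highest level and no tag at their start were Eno1b (1103 and 1110 CPM), Esrrb, a pluripotency nuclear receptor (931 and 925), Rpl34-ps1 (864 and 872), Cct2, a chaperonin subunit (770 and 766), and Klhl13 (748 and 751). Esrrb had 3 anchors elsewhere in its span with 450 tags and 42 partners. Eno1b, Rpl34-ps1 and the histone genes have near-identical copies, so their counts are uncertain.

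Naive and core pluripotency genes were the list richest in tags. Of 32 such genes, all with at least 1 CPM, 29 (90.6%) had a loop, and the median was 117.5 tags. For all 24925 matched genes the share was 43.7% and the median 0. For those with at least 1 CPM the share was 76.4% and the median 9. At 100 CPM or more 93.7% of genes had a loop, so the share of this list was not above that. Genes with a loop at that level had a median of 30 tags. Nanog, a homeobox factor, had 515 tags and 29 partners at 1136 and 1144 CPM. Its strongest partners were anchors 61.6 kb and 14.3 kb away, with 100 and 95 tags. Tbx3, a T-box factor, had 458 tags, of which 146 reached an anchor 89.5 kb away, and Trim28, a corepressor of retroviral elements, had 457. Pou5f1, a POU factor, had 435 tags and 37 partners, led by the adjoining anchor 17.2 kb away (173 tags). Sox2, a shared factor of stem and neural progenitor cells, had 236 tags and 15 partners, with its strongest loop (86 tags) to an anchor 106 kb away. Klf4 had 34 tags and 2 partners, with 32 of the tags to an anchor 59.0 kb away that had 28 partners. Its RNA counts were 0 under the same label. Whether the loop list and the RNA of this label share a genotype was not tested. Primed epiblast genes had a loop at 12 of 19 and a median of 6 tags, led by Nodal (168), a TGF-beta family ligand, Foxd3 (159) and Etv5 (124).

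Lineage lists had a loop at 16.7% (mesoderm) to 41.9% (neural progenitor) of their genes, at or under the 43.7% of all matched genes. Neural progenitor genes had a loop at 13 of 31 and a median of 0 tags, with Sox2, Hes1 (163), a Notch effector, and Msi2 (68), an RNA-binding protein, at the top. Of the 15 with at least 1 CPM, 12 had a loop and the median was 20 tags, against 76.4% of all such genes and their median of 9. Nes, an intermediate filament of progenitors, had 14 tags and 5 partners at 73.4 and 73.3 CPM, and Pax6 had none. Loops lay at 7 of 20 neuron genes (Stmn2 14 tags, Nhlh1 9, Nefl 6), 3 of 18 mesoderm genes (Bmp4 5, T 5, Meox1 4) and 4 of 16 endoderm genes (Sparc 42, Hnf4a 16, Lama1 15). They lay at 6 of 15 fibroblast and matrix genes (Loxl1 295, Fn1 120, Fbln1 9), 4 of 11 trophoblast genes (Tead4 112, Tfap2c 73, Cdx2 7) and 16 of 39 Hox genes (Hoxc13 55, Hoxc12 47, Hoxc11 29). Loxl1, placed by either annotated end because its strand was not given, had those tags at 1.51 and 1.70 CPM. Only 28 of them belonged to the 1 anchor that overlapped its annotated span.

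Housekeeping and chromatin lists hold mostly expressed genes, and 76.4% of all genes with at least 1 CPM and 93.7% of those with at least 100 CPM had a loop. All 77 ribosomal protein genes had a loop (median 53 tags), with Rpl23a (224), Rpl23 (219) and Rpl8 (193) highest. Polymerase II and pause factors had one at 27 of 28 (median 40.5), led by Polr2e (370), the largest subunit gene Polr2a (163) and the elongation scaffold Aff4 (121). CTCF, cohesin and Mediator genes had one at 26 of 30 with a median of 9.5 (11 for the expressed members, beside 9 for all expressed genes), led by Med20 (85), Ldb1 (72) and Med22 (71). KLF and Sp factors had one at 22 of 26 (median 39), led by Klf9 (454), Sp1 (280) and Klf2 (255). Cell cycle genes had one at 31 of 32 (Ccnd3 384, Cdt1 173, Mcm7 127), glycolysis at 20 of 21 (Gapdh 200, Aldoa 146, Tpi1 134) and the MYC network at 15 of 15 (Mycn 123, Mnt 97, Ncl 91). Ubiquitin and heat shock genes had one at 13 of 14, with a median of 70 tags (Hsp90aa1 472, Hsp90ab1 265, Ubb 218).

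RNA at the busiest anchors was compared between labels over all 17273 genes tested (edgeR quasi-likelihood test, called where the Benjamini-Hochberg adjusted value was below 0.05). In all, 73.1% of genes were called, 37.2% with more RNA in the KO-labelled libraries and 35.8% with less. The busiest 1% of anchors (203 anchors with at least 28 partners) held 238 genes, of which 180 were tested. Of these, 37 (20.6%) were higher and 104 (57.8%) lower, with a median log2 change of -0.40 against 0.03 for all. Genes with any loop leaned the same way: of 9892 tested, 32.1% were higher and 46.9% lower (median -0.15). Of 4938 placed genes without a loop, 56.1% were higher and 19.8% lower (median 0.84). Of all genes without a tag, only 19.95% reached 1 CPM in both WT-labelled libraries. Genes with little WT-labelled RNA could pass the expression filter only through KO-labelled counts, which favours higher values. No conclusion is drawn from this contrast between genes with and without a loop. Among genes with at least 1 CPM in both WT-labelled libraries, 98 of 151 at these anchors (64.9%) were lower, against 45.4% of all such genes. That filter reads the same WT-labelled counts as the comparison. Over all genes tested it moved the share that was lower from 35.8% to 45.4%, so the higher share after it adds no support. With library size alone, which moved the median of all genes by 0.21, the counts at the busiest anchors were 53 higher and 82 lower, or 29.4% and 45.6%, against 45.3% and 27.7% of all genes tested. These are counts beside a background, with no test of the list.

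Of the genes at the 20 busiest anchors, Ncoa3 read 425 and 420 CPM in the WT-labelled libraries against 133 and 134 under the KO label, and fell by 1.66 ± 0.031 (log2, SE, edgeR adjusted p = 8.2e-24). Both WT-labelled values lay above both KO-labelled ones. Mylpf had the widest gap: it read 209 and 226 CPM against 12.0 and 13.9, and fell by 4.06 ± 0.061. Senp3 read 458 and 459 CPM against 189 and 188, and fell by 1.28 ± 0.029. Polr2e read 309 and 314 against 127 and 129, and also fell by 1.28. Mllt6 fell by 1.07 ± 0.032, Tbc1d13 fell by 1.12 ± 0.034 and Sulf2 fell by 0.69 ± 0.032. Falls of 0.20 to 0.97 were measured for Tbc1d10b, Ssr2, Llgl2, Gpr107, Zfp553, Lasp1 and Gpx4, and Gpx4 alone among these called genes changed direction with library size alone, to 0.012. Zer1 went the other way, from 16.5 and 18.2 CPM to 46.0 and 38.2, a rise of 1.29 ± 0.094, though it shares its anchor with Tbc1d13. Snhg20 rose by 0.49 ± 0.10. Septin1, at the anchor of Mylpf, read 125 and 126 CPM against 129 and 121 (log2 change -0.0090, edgeR adjusted p = 0.858), but with library size alone its change was 0.20 with adjusted p = 0.000134.

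**Figure D5:**
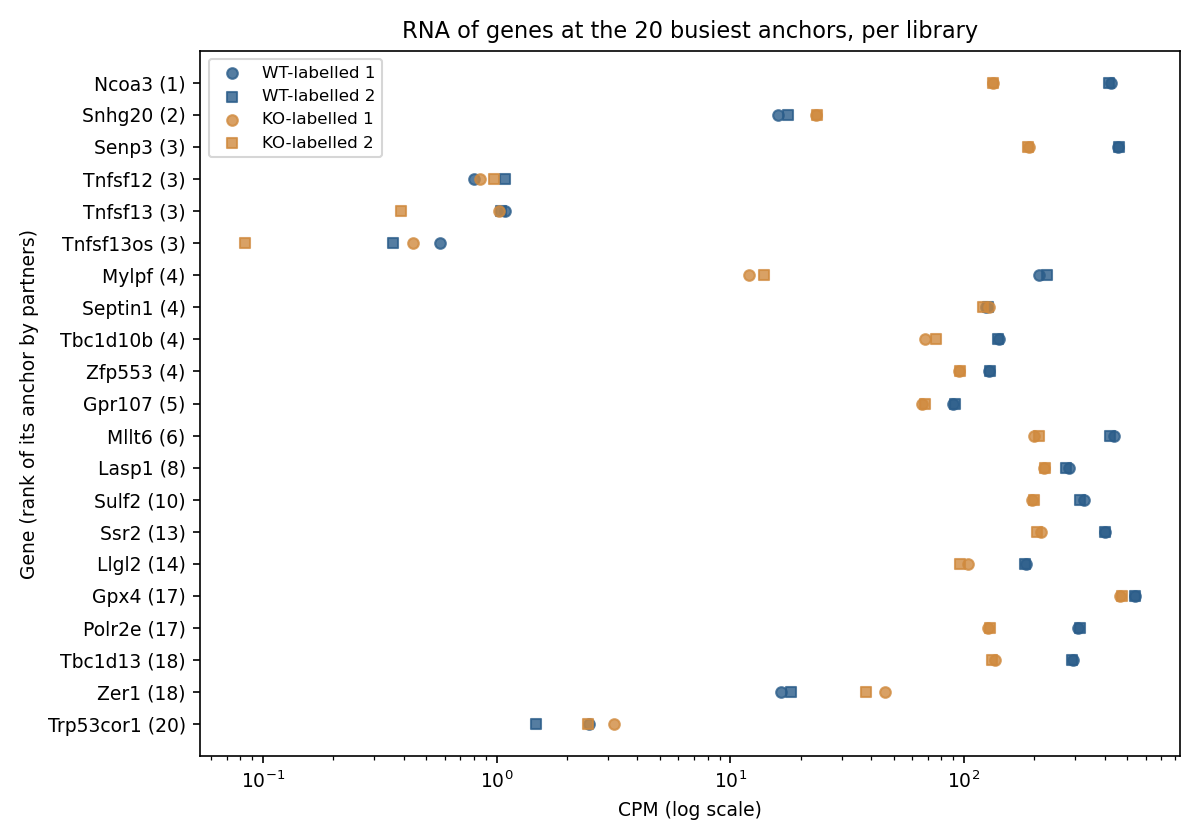
CPM (log scale) of tested genes at the 20 busiest WT-labelled anchors in each of the 4 RNA-seq libraries, with the rank of the anchor in parentheses. Blue points (WT-labelled) lie right of orange points (KO-labelled) for most genes, and left of them for Snhg20 and Zer1.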

How the data were processed

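The samples were RNA polymerase II HiChIP and RNA-seq of E14 cultures labelled NPC. Groups came from sample titles. Loop members and gene lists were chosen with earlier results of these data known.

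Each deposited loop list gives the authors' tag counts per loop and their q-value (the false discovery rate), and both replicates of a label name the same list, so they appear pooled. The submitters' processing notes name the build mm10, MACS2 2.2.7.1, HiC-Pro 2.11.1 and Bowtie2 2.4.4, and the loop caller is not given in the sources used here. For RNA-seq the authors deposited unnormalized gene counts. The same notes name HISAT2 2.1.0 and featureCounts 2.0.3, and the strand setting is not given, so overlapping genes cannot be told apart. Their last rows look like output of htseq-count, and which counter made them is open. Reads in rows that name no gene (20.4% to 22.5% of each file) stayed out of library sizes.

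Loops of at least 2 tags were kept. A gene was at an anchor when its RefSeq start (GRCm38.p6), or either end for 7589 of 34614 genes without a listed start, lay within 2500 bases. Of these genes, 24925 matched a count. RNA was tested with edgeR 4.0.16 (R 4.3.3, limma 3.58.1, filterByExpr, TMM, glmQLFTest, two-sided). DESeq2 1.42.0 was an alternative. Networks used Python 3.11.15 and networkx 3.6.1. Scripts were tested on simulated data. Genes named are those of the 20 busiest anchors and 20 strongest loops, the 3 with most tags in each list, 5 exceptions each way, and Klf4, Pou5f1, Sox2, Nanog, Pax6 and Nes. Partner genes of these, marker genes (Fabp7, Hes5), genes at far loops (Zfp980, Zfp987, Zfp534) and genes near anchors without a start were named after their values were seen.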

Additional observations from a re-analysis of the deposited data

How the results depend on the processing

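Every loop value rests on 1 pooled list, so none has a replicate. The number of loops was 34493 at 3 tags or more, 22148 at a false discovery rate of at most 0.01 and 143451 with 1-tag loops, and mean partners were 4.09, 3.39 and 11.9. Merging anchors with a gap of at most 1000 bases gave 5.69. Of the 20 busiest anchors, 18, 16 and 17 stayed among the 20 at 3 tags, at that rate and after merging, 9 when ranked by tags (chosen after seeing the data), and 0 when partners were divided by width. The share of tags within 100 kb was 74.7% at 3 tags, 60.2% at that rate, 56.7% with 1-tag loops and 55.4% for loops of at least 20 kb. The strongest loops kept their count of 17 within 100 kb at that rate and after merging (both chosen after seeing the data). The Spearman correlation of tags and CPM over genes was 0.491 at 3 tags, 0.435 at that rate, 0.576 with 1-tag loops, 0.564 and 0.517 for windows of 1000 and 5000 bases, 0.200 over genes with a tag, 0.582 per kb of gene span, 0.541 to 0.542 leaving out either library, and, both chosen after seeing the data, 0.557 over stranded starts and 0.533 for anchors anywhere in the span. With both libraries of each label kept, RNA counts at the busiest 1% of anchors stayed within 1.5 times of 37 higher and 104 lower. The busiest 5% held more genes, with 145 and 422 of 686 tested, or 21.1% and 61.5%, against 20.6% and 57.8% at 1%. With no filter beyond 1 count in all, 38 of 200 were higher, against 22.9% of all genes tested, and 101 (50.5%) lower, against 22.1%. Without 1 library, the median log2 change at the busiest 1% was -0.36 to -0.38, against -0.40 in the main fit. With the replicate number as a block the counts were 37 and 100. The numbers did not pair the samples (r = 0.0153 between labels). Over 73 named genes, 4 reversed with library size alone: Gpx4 (0.012), Etv5 (0.018), Foxd3 (0.0060) and Tfap2c (0.044, log2). Of 584 values of these genes, 10 gained the call (Septin1, Trp53cor1, Fn1, Hes1, Ldb1, Meox1 and Nefl) and 5 lost it (Foxd3 in 3, Rpl8 and Sox2).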
